A study of Mus musculus with 12 samples.

Results

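The genes described here make, export, sense and break down sphingosine 1-phosphate (S1P), a signalling lipid. The 9 members were the rows of the deposited gene table of 23378 genes whose symbol was Spns2, Sphk1, Sphk2, S1pr1, S1pr2, S1pr3, Sgpl1, Sgpp1 or Plpp3, and all 9 had a row. Spns2 was chosen by its measured rise in macula densa libraries on the low salt diet, so its values in those libraries are given as a description with no test. The other members were chosen for their place in the pathway.

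RNA was sequenced from cells sorted out of mouse kidney cortex. The mice were on a C57BL/6 background and had the genetic model nNosCreERT2-mTmG, in which a Cre recombinase inducible by tamoxifen is driven by the gene of neuronal nitric oxide synthase and turns a membrane reporter from red tdTomato to green GFP. This genotype was shared by every group. Green cells were collected as macula densa cells, a plaque of salt-sensing tubule cells beside the glomerulus, and the brightest red cells were collected as controls meant to stand for distal tubule and collecting duct epithelium. For 14 days the mice had control diet, or a low salt diet and enalapril, an inhibitor of angiotensin-converting enzyme, dissolved in their water at 150 mg/L, so that the effects of the diet and of the drug cannot be told apart. There were 2 macula densa libraries and 4 control-cell libraries on each diet. The labels give no age and do not say how many animals stood behind a library, and p-values then measure only the spread between these libraries, which may be technical.

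S1P is made inside the cell when a sphingosine kinase phosphorylates sphingosine, a product of ceramide breakdown. Spns2 carries it out across the plasma membrane, and G protein-coupled receptors on the same or neighbouring cells sense it. S1P lyase cleaves it irreversibly, and phosphatases return it to sphingosine. In the kidney the lipid is best known for its action on endothelium, on vascular tone and on lymphocyte traffic.

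Library totals ranged from 4259020 to 14856542 counts, of which 781257 to 2331481 fell on nuclear protein-coding genes. A single row, Gm42418, took 53.5% to 65.0% of each total and was kept in the totals behind the levels below. Levels are given as CPM, the count scaled to the library total after normalization, and 3 counts, used as the floor for a low gene, were worth 0.231 to 0.734 CPM. Nos1, the gene behind the sort, averaged 106 ± 7.32 CPM in macula densa cells on control diet and 177 ± 78.2 CPM on low salt (SD, n = 2). In control cells it averaged 0.343 ± 0.160 and 0.544 ± 0.159 CPM (SD, n = 4). The summed level of 6 macula densa markers was 2118 to 3068 CPM in macula densa libraries and 43.3 to 435 CPM in control-cell libraries, with Oxtr, a member of that list, at 0 counts in both macula densa libraries on low salt. Most of that sum was Slc12a1, which is also a thick ascending limb marker. On control and low salt diet Slc12a1 averaged 1898 and 1943 CPM in macula densa cells and 158 and 247 CPM in control cells. Control cells held 104 to 900 CPM of 8 principal-cell markers of the collecting duct. They also held 59.0 to 1868 CPM of 11 endothelium markers and 49.2 to 1464 CPM of 8 podocyte markers, so the label of distal epithelium did not describe all of the RNA in these libraries. The lowest of both sums came from control-cell replicate 4 on control diet, and the highest macula densa endothelium sum, 209 CPM, came from macula densa replicate 1 on control diet.

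**Figure D1:**
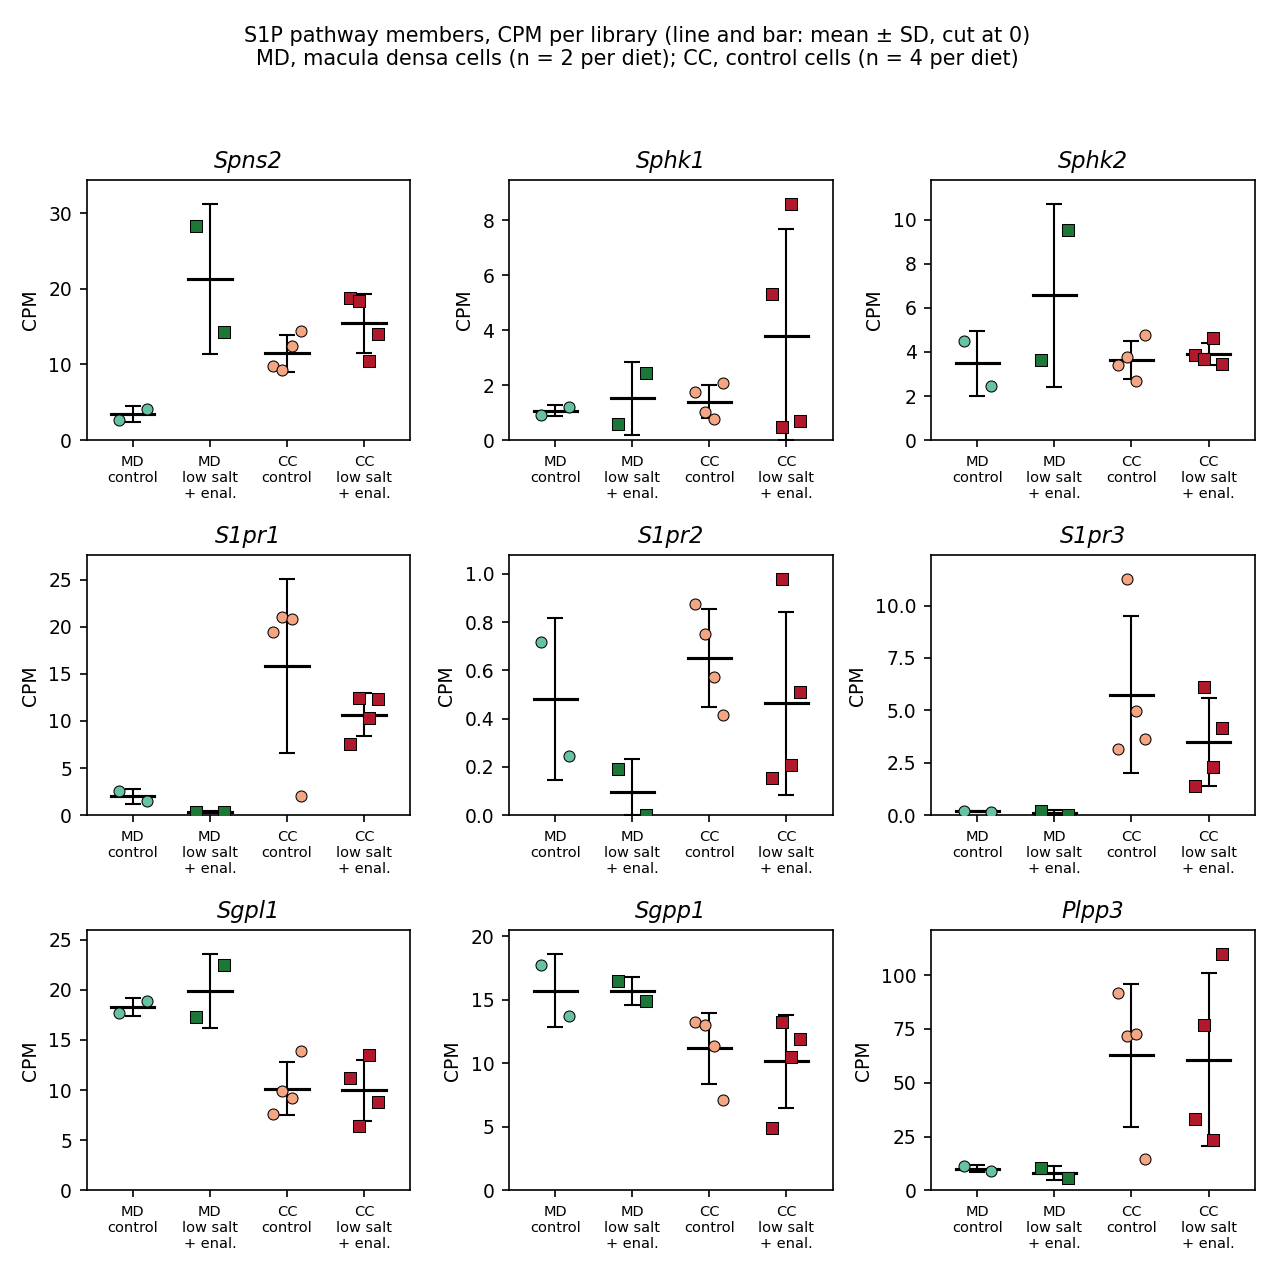
Level of each of the 9 members (vertical axis, CPM) in every library, by group (MD, macula densa cells; CC, control cells; enal., enalapril). Points are libraries, lines and bars are means ± SD. Spns2 sits at 2.67 and 4.15 CPM in macula densa cells on control diet and at 28.4 and 14.3 CPM on low salt, and S1pr1, S1pr3 and Plpp3 sit lower in macula densa libraries than in nearly all control-cell libraries.

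Spns2 (chromosome 11, 72451638 to 72489904, minus strand, GRCm38), the S1P exporter, read 2.67 and 4.15 CPM (26 and 51 counts) in the macula densa libraries on control diet and 28.4 and 14.3 CPM (148 and 87 counts) on low salt plus enalapril. Both low salt libraries were above both control diet libraries. The means were 3.41 ± 1.05 and 21.3 ± 9.96 CPM (SD, n = 2 each), and the fitted log2 difference was 2.63, a 6.18-fold rise. The gene was picked on this contrast, so no interval is given. Among all 14180 genes that passed the filter on low counts, 18.8% also had both low salt macula densa libraries above both control diet libraries. The low salt library with the higher value carried part of the difference, since the log2 difference was 1.99 once low salt replicate 1 of macula densa cells was left out.

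In control cells Spns2 read 9.73, 9.30, 12.5 and 14.5 CPM on control diet and 18.8, 18.4, 10.5 and 14.0 CPM on low salt plus enalapril. These groups overlapped. The log2 difference between diets was 0.43 (SE 0.27, 95% interval -0.17 to 1.02) and did not pass the test (edgeR quasi-likelihood test, adjusted p = 0.938, adjusted by Benjamini-Hochberg over all genes tested). In this comparison 0.00705% of all genes passed, and none of the 8 members tested did. At an unadjusted p under 0.05 there were 914 genes, 6.45% of those tested, and no member.

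Placed in order of their means, the Spns2 levels were 21.3 CPM in macula densa cells on low salt, 15.4 ± 3.93 CPM in control cells on low salt, 11.5 ± 2.43 CPM in control cells on control diet (SD, n = 4) and 3.41 CPM in macula densa cells on control diet. The first 3 groups overlapped with their neighbours in this order. The last did not: both macula densa libraries on control diet were below all 4 control-cell libraries on that diet, as were those of 16.7% of all genes tested. The difference between the diet effects, macula densa minus control cells, was 2.20 on the log2 scale, also a description because it contains the contrast that picked the gene. It was 1.55 when low salt replicate 1 of macula densa cells was left out and 1.72 without the control-diet libraries whose endothelium sums stood apart.

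Several values move with Spns2 or bear on it. The exons of Spns2 overlap by 131 bases with those of Mybbp1a, a nucleolar Myb-binding protein gene on the other strand, and whether strand was used in counting is not given in the sources used here. Mybbp1a itself averaged 12.9 ± 3.04 CPM on control diet and 14.1 ± 0.706 CPM on low salt in macula densa cells (SD, n = 2), a log2 difference of 0.12 (edgeR adjusted p = 0.906). The endothelium marker sum was lower in the macula densa libraries with more Spns2, at 19.7 and 14.4 CPM on low salt against 209 and 31.3 CPM on control diet. The macula densa marker sum was higher there, at 2641 to 3068 CPM against 2118 to 2386 CPM. Slc12a1, most of that sum, averaged 1898 ± 182 CPM on control diet and 1943 ± 96.8 CPM on low salt (SD, n = 2). Pappa2 averaged 229 ± 1.80 and 578 ± 277 CPM, and Nos1 106 ± 7.32 and 177 ± 78.2 CPM. Ptgs2, the inducible cyclooxygenase of these cells, averaged 15.1 ± 1.16 CPM on control diet and 142 ± 47.6 CPM on low salt (SD, n = 2). The sum of 8 thick ascending limb markers was lower there, at 2454 and 2611 CPM on low salt against 3401 and 4301 CPM on control diet, and Egf, a member of that list, averaged 143 ± 12.4 and 1141 ± 317 CPM (SD, n = 2). The part of the makeup of the sorted cells in the Spns2 values was not tested. In bulk libraries such as these, fewer cells of a type and less RNA per cell cannot be told apart.

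The genes whose pattern was most like that of Spns2 were named by Pearson correlation of log2 CPM over the 12 libraries, among 6687 genes with a mean of at least 5 CPM. They were Map4k5 (r = 0.94, rho = 0.80), Ttc37 (r = 0.89, rho = 0.57), Rnf139 (r = 0.86, rho = 0.83), Tapbp (r = 0.84, rho = 0.69) and Polr1d (r = 0.82, rho = 0.77). These values are descriptions over libraries that share 4 groups. Map4k5, a MAP kinase kinase kinase kinase gene, read 8.31 ± 0.578 CPM in macula densa cells on control diet and 13.9 ± 0.899 CPM on low salt (SD, n = 2), beside 13 ± 0.478 and 13.8 ± 0.888 CPM (SD, n = 4) in control cells. Rnf139, a ubiquitin ligase gene, read 3.57 ± 0.256 CPM in macula densa cells on control diet and 8.60 ± 1.06 CPM on low salt (SD, n = 2). All 5 had their lowest group mean in macula densa cells on control diet, as Spns2 did. They were ranked by likeness to Spns2 over these same libraries, so this follows from the choice and is not separate support.

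The sphingosine kinases make the lipid that Spns2 exports, and neither passed the test in any of the 4 comparisons. Sphk1 (chromosome 11, 116530925 to 116536674, plus strand), the more inducible and mostly cytosolic kinase, was low throughout. It read 0.923 and 1.22 CPM in macula densa cells on control diet, 0.575 and 2.46 CPM on low salt, 1.75, 1.03, 0.762 and 2.07 CPM in control cells on control diet, and 5.30, 0.490, 8.61 and 0.712 CPM on low salt. The control cells on low salt split into a pair of libraries above 5 CPM and a pair below 1 CPM, and the groups overlapped in every comparison. The log2 difference between diets in control cells was 1.42 (SE 0.76, 95% interval -0.22 to 3.07, edgeR adjusted p = 0.865), and that between diets in macula densa cells was 0.51 (SE 1.16, 95% interval -2.0 to 3.02).

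Sphk2 (chromosome 7, 45709467 to 45718002, minus strand), the kinase found in nucleus and mitochondria as well as cytosol, read 4.51 and 2.44 CPM in macula densa cells on control diet and 3.64 and 9.51 CPM on low salt. Control cells read 2.67 to 4.75 CPM on control diet and 3.46 to 4.62 CPM on low salt. A single macula densa library on low salt, replicate 2, was above all others. The log2 difference between diets in macula densa cells was 0.93 (SE 0.46, 95% interval -0.069 to 1.93, edgeR adjusted p = 0.477), and it was 0.012 without that library. Sphk2 counts are uncertain, since its exons overlap by 539 bases with Dbp, a clock-controlled transcription factor gene, and by 373 bases with Rpl18, a ribosomal protein gene, both on the other strand. Dbp itself averaged 2.37 ± 0.128 CPM on control diet and 6.04 ± 0.963 CPM on low salt in macula densa cells (SD, n = 2).

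Averaged over both diets, 4 of the 7 members tested beside Spns2 differed between macula densa and control cells: S1pr1, S1pr3 and Plpp3 were lower and Sgpl1 was higher (edgeR quasi-likelihood test, adjusted p under 0.05). Of all genes tested, 21.3% passed in this comparison: macula densa cells had more of 7.48% and less of 13.9%. In 23 alternative analyses the number of members that passed ranged from 3 to 4. No member passed between diets in macula densa cells, where 0% of all genes did. There 1594 genes, 11.2%, had an unadjusted p under 0.05, none of them one of the 7 members tested. The difference of the diet effects had no member past the threshold either, again beside 0% of all genes, with 997 genes (7.03%) and no member at an unadjusted p under 0.05.

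**Figure D2:**
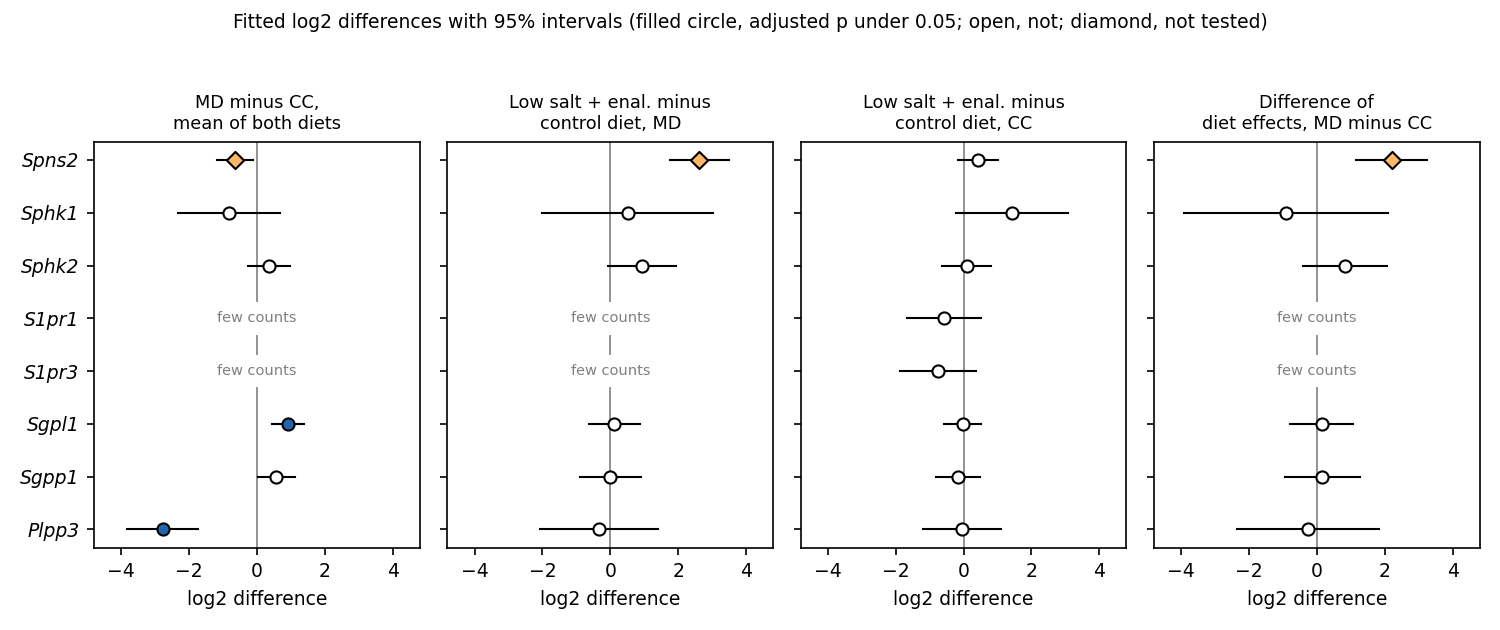
Fitted log2 differences (horizontal axes) with 95% intervals for 8 members in the 4 comparisons; filled circles passed the edgeR test, open circles did not, and diamonds mark Spns2 where it was not tested. The intervals of the diamonds take no account of how Spns2 was picked and are not a test. S1pr1 and S1pr3 are shown only for control cells because macula densa libraries held few counts. Plpp3 lies at -2.77 and Sgpl1 at 0.92 in the cell comparison.

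S1pr1 (chromosome 3, 115710433 to 115715072, minus strand), the Gi-coupled receptor of endothelium and lymphocytes, was low in macula densa cells. It read 2.56 and 1.47 CPM on control diet (25 and 18 counts) and 0.383 and 0.328 CPM on low salt (2 counts in each library). Control cells read 19.5, 21, 20.9 and 2.07 CPM on control diet and 7.61, 12.5, 10.3 and 12.3 CPM on low salt. On low salt every control-cell library was above both macula densa libraries, as for 19.5% of all genes tested. On control diet control-cell replicate 4 lay between the macula densa values. From summed counts, control cells held 8.21 times as much S1pr1 as macula densa cells on control diet (95% counting interval 6.03 to 11.5) and 28.6 times as much on low salt (11 to 105). The cell difference passed the test (edgeR adjusted p = 0.00136, range over the alternatives 3.56e-09 to 0.0423). Of the 7 members tested beside Spns2, S1pr1 was the one whose macula densa libraries did not overlap between diets, lower on low salt, where 21.8% of all genes tested did the same. That diet difference did not pass (edgeR adjusted p = 0.452).

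S1pr3 (chromosome 13, 51408639 to 51422797, plus strand), a receptor of vascular smooth muscle and endothelium that couples to Gi, Gq and G12/13, had few counts in macula densa libraries, which held 2, 2, 1 and 0 counts. Control-cell libraries held 29, 120, 52 and 35 counts on control diet, or 3.17, 11.3, 4.95 and 3.62 CPM, and 18, 25, 11 and 41 counts on low salt, or 1.38, 6.12, 2.31 and 4.17 CPM. All control-cell libraries were above all macula densa libraries on each diet, as 7.6% of all genes tested were. Summed counts gave a ratio of control cells to macula densa cells of 32.5 on control diet (95% counting interval 12.5 to 120) and 33.9 on low salt (5.94 to 1354). The cell difference passed edgeR's quasi-likelihood test (adjusted p = 0.000811) and did not pass limma voom with sample weights (adjusted p = 0.0785, range over the alternatives 8.66e-07 to 0.0785).

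S1pr2 (chromosome 9, 20962361 to 20976781, minus strand), a receptor that mainly couples to G12/13, was below the filter and was not tested. It had 10 and 1 counts in all over the macula densa libraries on control and low salt diet, and 26 and 12 over the control-cell libraries. Its macula densa libraries read 0.718 and 0.244 CPM on control diet (7 and 3 counts) and 0.192 and 0 CPM on low salt (1 and 0 counts). They did not overlap, as for 21.8% of all genes tested, but on a few counts. The ratio of control cells to macula densa cells was 1.43 on control diet (95% counting interval 0.668 to 3.33) and 4.29 on low salt (0.634 to 183). No difference was detectable at this depth.

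The breakdown genes split between the cell populations. Sgpl1 (chromosome 10, 61098642 to 61147703, minus strand), the S1P lyase that ends the pathway, was higher in macula densa cells. It read 17.6 and 18.9 CPM on control diet and 17.2 and 22.5 CPM on low salt. Control cells read 7.65, 9.87, 9.24 and 13.8 CPM on control diet and 11.2, 6.37, 13.4 and 8.85 CPM on low salt. Every macula densa library was above every control-cell library on each diet, as was so for 6.02% of all genes tested. The log2 difference was 0.92 (SE 0.21, 95% interval 0.46 to 1.38, 1.89-fold, edgeR adjusted p = 0.00905). The call was lost without macula densa replicate 2 on control diet (adjusted p = 0.0527) and without its low salt counterpart, also replicate 2 (adjusted p = 0.0632). The lowest adjusted p over the alternatives was 0.000709. Between diets Sgpl1 differed by 0.12 (95% interval -0.63 to 0.87) in macula densa cells on the log2 scale and by -0.021 (-0.57 to 0.52) in control cells. Over the 8 control-cell libraries, Sgpl1 correlated with summed leukocyte markers at r = -0.94, podocyte markers at -0.84 and endothelium markers at -0.79. With intercalated-cell and thick ascending limb markers r was 0.77 and 0.69. The part of library makeup in the Sgpl1 difference between cell populations was not tested.

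Sgpp1 (chromosome 12, 75714249 to 75735729, minus strand), an S1P phosphatase of the endoplasmic reticulum, read 17.7 and 13.7 CPM in macula densa cells on control diet and 16.5 and 14.9 CPM on low salt. Control cells read 13.2, 13, 11.3 and 7.13 CPM on control diet and 4.92, 13.2, 10.5 and 11.9 CPM on low salt. The macula densa libraries were the higher on each diet, with no overlap, as for 6.02% of all genes tested. The log2 difference of 0.57 (SE 0.25, 95% interval 0.019 to 1.12) did not pass the test after adjustment (edgeR adjusted p = 0.126).

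Plpp3 (chromosome 4, 105157347 to 105232764, plus strand), a lipid phosphatase of the cell surface that dephosphorylates S1P and lysophosphatidic acid outside the cell, was the member that held most RNA in control cells. It read 91.7, 72.0, 72.7 and 14.8 CPM there on control diet and 33.2, 76.6, 23.5 and 110 CPM on low salt. Macula densa cells read 11.2 and 9.04 CPM on control diet and 10.3 and 5.91 CPM on low salt, below every control-cell library, as for 7.6% of all genes tested. The log2 difference was -2.77 (SE 0.48, 95% interval -3.82 to -1.72), a level 6.82-fold lower in macula densa cells (edgeR adjusted p = 0.00458, range over the alternatives 3.22e-07 to 0.0321). Between diets the log2 difference was -0.32 (95% interval -2.06 to 1.42) in macula densa cells and -0.045 (-1.21 to 1.12) in control cells.

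Of the 3 members that were lower in macula densa cells, S1pr1 and Plpp3 were also low in the control-cell library with the lowest endothelium sum, replicate 4 on control diet, and S1pr3 was not: it read 3.62 CPM there and 3.17 CPM in replicate 1, whose sum was the highest. Among control cells, replicate 4 on control diet also had the lowest podocyte sum, 49.2 CPM. Its principal-cell and thick ascending limb sums, 900 and 1629 CPM, were the highest. Over the 8 control-cell libraries, S1pr1 correlated with the endothelium sum at r = 0.93 and with the podocyte sum at 0.90. For Plpp3 these were 0.96 and 0.95, with 0.88 for the leukocyte sum, and for S1pr3 0.41 and 0.56. S1pr3 had its highest correlation with the erythroid sum (r = 0.84, rho = 0.83). By rank, S1pr1 correlated at rho = 0.76 with the endothelium sum, 0.74 with the podocyte sum and 0.81 with the erythroid sum. For Plpp3 rho was 0.81 with the endothelium sum, 0.79 with the podocyte sum and 0.88 with the leukocyte sum. All 11 endothelium markers had a row, and their summed level was 31.3 to 209 CPM in macula densa cells on control diet, 14.4 to 19.7 CPM on low salt, 59.0 to 1868 CPM in control cells on control diet and 308 to 1439 CPM on low salt. Plvap, a marker of fenestrated endothelium, was at 0 in both macula densa libraries on low salt. The 8 markers of smooth muscle, mesangial and renin cells summed to 23.3 to 55.9 CPM in macula densa libraries and 149 to 610 CPM in control cells. Set against the endothelium sum, S1pr1 was 1.23% to 4.69% of it in macula densa libraries and 0.855% to 3.50% in control cells, ranges that overlap. Plpp3 was 5.34%, 28.9%, 52.4% and 40.9% of the endothelium sum in the macula densa libraries. Of the control-cell libraries, replicate 4 on control diet stood at 25.0% and the other 7 at 4.66% to 7.81%. These ranges overlap only through that library and macula densa replicate 1 on control diet (5.34%), the libraries whose sums stood apart, and without them the Plpp3 share was higher in macula densa libraries. S1pr3 was 0% to 0.971% of it in macula densa libraries and 0.170% to 6.13% in control cells. Without control-cell replicate 4 and macula densa replicate 1 on control diet, the cell difference was -4.32 for S1pr1, -5.11 for S1pr3 and -3.01 for Plpp3 on the log2 scale, and all 4 members still passed. The part of endothelial RNA, or of podocyte, leukocyte or erythroid RNA, in these differences was not tested.

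**Figure D3:**
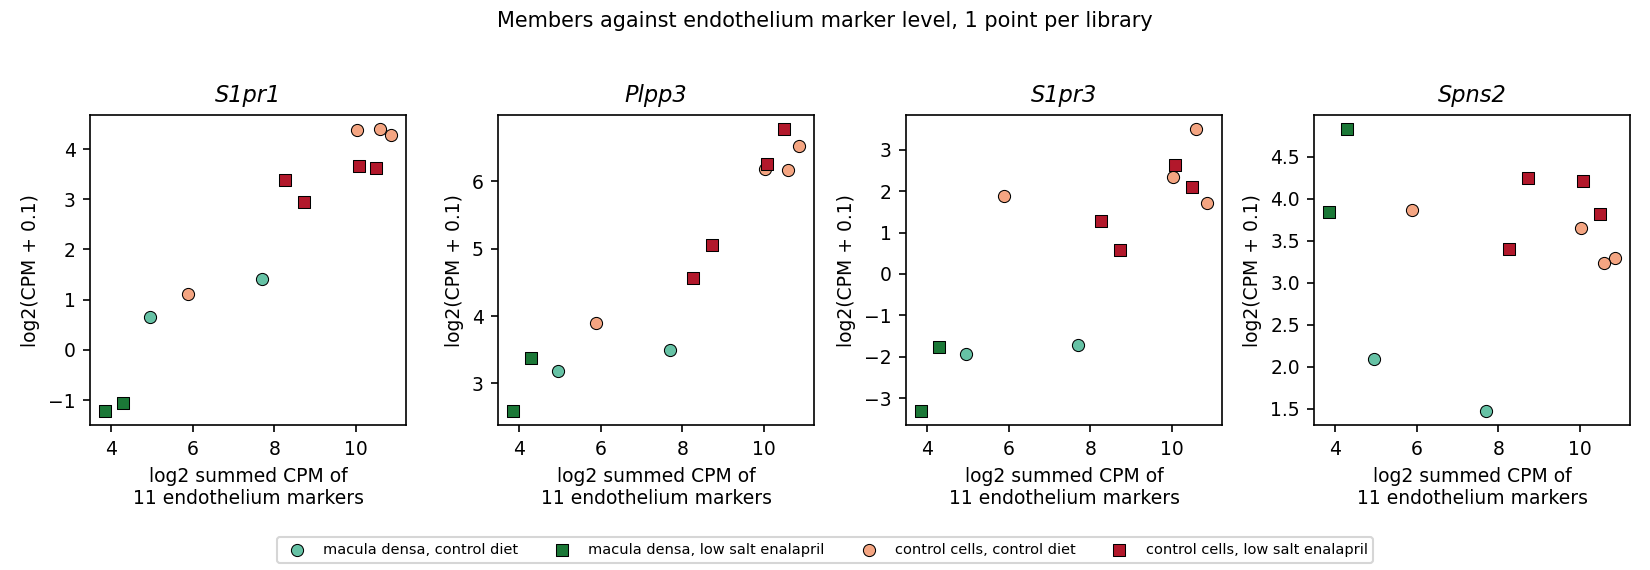
Level of 4 members (vertical axes, log2 of CPM + 0.1) against the summed level of 11 endothelium markers (horizontal axes, log2 CPM), 1 point per library. S1pr1 and Plpp3 are low where the endothelium sum is low, control-cell replicate 4 on control diet included (sum 59.0 CPM), while Spns2 is at its highest, 28.4 CPM, in a library whose sum is 19.7 CPM. Control-cell replicate 4 on control diet also has the lowest podocyte sum of the control cells, 49.2 CPM.

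The sequence before the start site is shown for the members whose libraries did not overlap between cell populations on either diet and that passed the test. RefSeq held a start site for 8 of the 9 members on GRCm38.p6. The start of S1pr3 there lies 21 bases before the annotated gene and that of Sgpl1 lies 19 bases inside it. The entry for Spns2 lies 14877 bases inside the annotated gene and is not shown. Each line below gives the 250 bases upstream of the RefSeq start, 5' to 3' on the gene's strand, with GC boxes (GGGCGG on either strand) in capitals. The windows are S1pr3, plus strand, chr13:51408368-51408617, then Plpp3, plus strand, chr4:105157097-105157346, then Sgpl1, minus strand, chr10:61147685-61147934.
S1pr3: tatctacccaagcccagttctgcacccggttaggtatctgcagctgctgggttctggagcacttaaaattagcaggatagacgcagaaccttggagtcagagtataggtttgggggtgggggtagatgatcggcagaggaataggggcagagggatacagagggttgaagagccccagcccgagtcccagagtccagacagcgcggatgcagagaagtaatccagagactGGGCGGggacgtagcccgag
Plpp3: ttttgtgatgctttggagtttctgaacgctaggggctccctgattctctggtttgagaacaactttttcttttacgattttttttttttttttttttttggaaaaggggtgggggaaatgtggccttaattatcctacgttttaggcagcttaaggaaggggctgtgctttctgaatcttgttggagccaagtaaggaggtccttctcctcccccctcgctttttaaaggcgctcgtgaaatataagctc
Sgpl1: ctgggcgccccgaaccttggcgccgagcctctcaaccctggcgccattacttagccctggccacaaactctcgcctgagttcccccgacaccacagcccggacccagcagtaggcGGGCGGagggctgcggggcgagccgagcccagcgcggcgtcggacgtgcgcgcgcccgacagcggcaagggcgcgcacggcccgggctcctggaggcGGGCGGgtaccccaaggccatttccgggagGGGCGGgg
Sgpl1, the member that was higher in macula densa cells, had 3 GC boxes and a GC content of 74.8%, S1pr3 had 1 GC box and 56.4% GC, and Plpp3 had none and 42.4% GC. Over 32851 RefSeq windows of this length, 32.7% held a GC box and the median GC content was 52.4%. A TATA box (TATAAA, in 12.4% of windows), a cAMP response element (TGACGTCA, in 1.55%) and an AP-1 element (TGAGTCA, in 4.46%), each searched on both strands, had no match in these 3 windows. Matches are descriptions of the letters in the window only.

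On a scale that allows genes to be compared, CPM per kilobase of exon, Spns2 changed place among the members in macula densa cells. On control diet Plpp3 (3.20), Sgpl1 (2.97) and Sgpp1 (2.78) had the highest levels there, and Spns2 stood at 0.835, next to Sphk2 at 0.836. On low salt Spns2 had the highest mean level, 5.22, ahead of Sgpl1 at 3.23, Sgpp1 at 2.78 and Plpp3 at 2.57. The range of Spns2 on low salt, 3.50 to 6.94, met that of Sgpl1, 2.81 to 3.66. Spns2 was picked for its rise in these macula densa libraries, so its change of place restates that rise and is not separate support. In control cells Plpp3 led on each diet, with 19.9 and 19.2 CPM per kilobase on control and low salt diet. S1pr1 came next on control diet with 5.21, and Spns2 came next on low salt with 3.78, beside S1pr1 with 3.50. The receptors were the lowest members in macula densa cells on low salt, at 0.117 for S1pr1, 0.0215 for S1pr3 and 0.0120 for S1pr2.

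**Figure D4:**
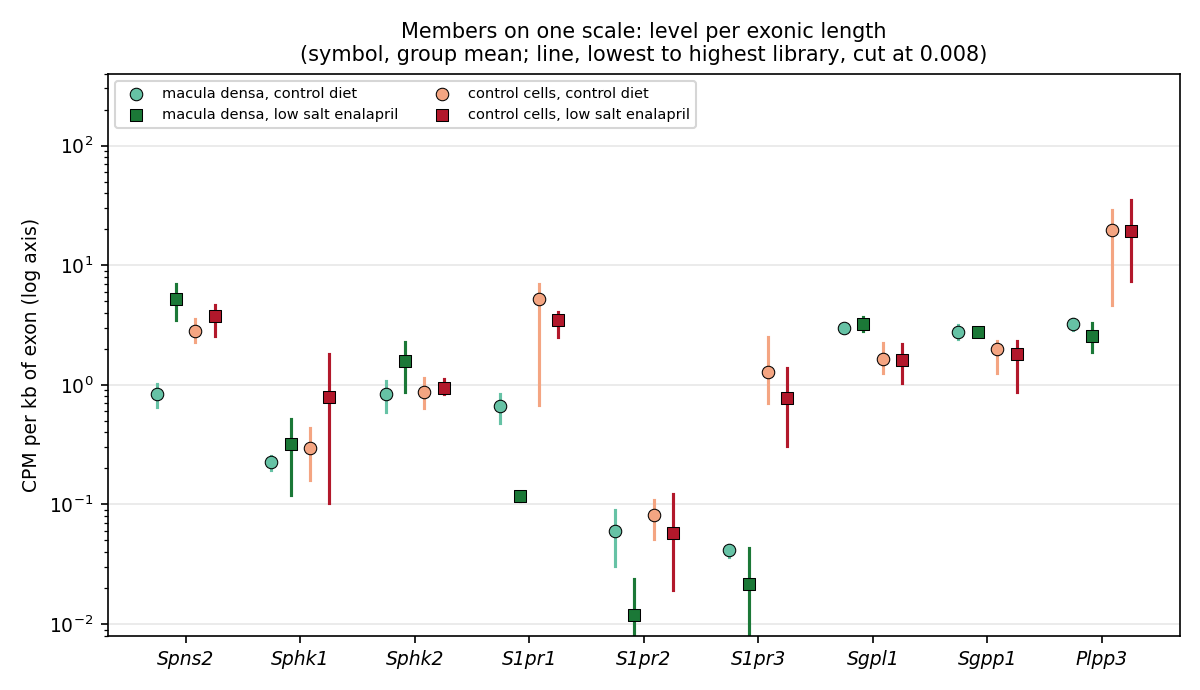
Level of the 9 members in CPM per kilobase of exon (vertical axis, logarithmic) in the 4 groups; symbols are group means and lines run from the lowest to the highest library. Spns2 stands at 0.835 in macula densa cells on control diet and at 5.22 on low salt, while Sgpl1 and Sgpp1 lie between 2.78 and 3.23 on both diets.

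Around the members, 50 other genes of sphingolipid metabolism and S1P signalling were followed. Of these, Sptlc3, Cers1 and Acer1 had no row, 7 were below the filter, and 40 were tested. Between the cell populations macula densa libraries had more of 3 and less of 8, that is 27.5% of those tested beside 21.3% of all genes, with 7.48% of all genes higher and 13.9% lower. The median log2 difference of the 40 was -0.028 beside -0.060 over all genes. The shares that passed in the 4 lists were 4 of 14 genes of ceramide and sphingomyelin turnover (28.6%), 1 of 6 of S1P handling (16.7%), 3 of 13 of ceramide synthesis (23.1%) and 3 of 7 G protein genes (42.9%), beside 21.3% of all genes. None of the 40 passed in either diet comparison or in the difference of the diet effects. The 7 below the filter included the other S1P exporter Mfsd2b (65 counts over all libraries), the S1P carrier Apom (27 counts) and the receptors S1pr4 (30 counts) and S1pr5 (36 counts).

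Of 14 tested genes of ceramide and sphingomyelin turnover, macula densa cells had more of 2 and less of 2. Sgms2, the plasma membrane sphingomyelin synthase, read 105 and 101 CPM in macula densa cells on control diet and 136 and 109 CPM on low salt. Control cells read 6.34, 5.83, 8.57 and 20.9 CPM on control diet and 15.4, 9.06, 29.8 and 7.53 CPM on low salt. All macula densa libraries were above all control-cell libraries, as for 6.02% of all genes tested, with a log2 difference of 3.15 (SE 0.39, edgeR adjusted p = 0.000246). Over the 8 control-cell libraries Sgms2 correlated with the endothelium sum at r = -0.84 (rho = -0.93). The part of library makeup in the Sgms2 difference was not tested. Sgms1, the Golgi sphingomyelin synthase, was 1.45-fold higher (edgeR adjusted p = 0.0230). Acer2, the Golgi alkaline ceramidase that yields sphingosine, was lower in macula densa cells, at 3.90 and 0.815 CPM on control diet and 1.72 and 0.328 CPM on low salt against 3.51 to 19.8 CPM in control cells (log2 difference -3.09, SE 0.59, edgeR adjusted p = 0.00463). Cerk, the ceramide kinase, was also lower, at 1.15 to 3.59 CPM against 3.93 to 11.1 CPM (log2 difference -1.90, SE 0.35, edgeR adjusted p = 0.00361).

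Of 6 tested genes of S1P handling, Plpp1, a surface lipid phosphatase related to Plpp3, was the one that passed, lower in macula densa cells (edgeR adjusted p = 0.00781). It had 131 and 28 counts in the macula densa libraries on control diet and 2 and 0 on low salt, against 15 to 868 counts in control-cell libraries. Among 13 tested genes of ceramide synthesis, Sptlc1 was higher (log2 difference 0.50, edgeR adjusted p = 0.0380), and Sptlc2 (-0.83, adjusted p = 0.0206) and Degs1 (-0.65, adjusted p = 0.0450) were lower. Sptlc1 and Sptlc2 encode subunits of serine palmitoyltransferase, the first enzyme of the pathway, and Degs1 the dihydroceramide desaturase. Among 7 G protein alpha subunit genes through which S1P receptors signal, 3 were lower and none higher, beside 13.9% and 7.48% of all genes: Gnai2 (-1.67, edgeR adjusted p = 0.0126), Gna13 (-0.72, adjusted p = 0.00598) and Gnaq (-0.63, adjusted p = 0.0312).

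Of these 11 calls, those of Sgms2, Acer2 and Cerk held in all 23 alternatives. Plpp1 was lost in 2 of them, with limma voom (log2 difference -5.60, adjusted p = 0.263, lowest over the alternatives 6.64e-06) and when low salt replicate 2 of macula densa cells was left out (edgeR adjusted p = 0.0532). The weaker calls were lost more often: Sptlc1 and Degs1 in 13 alternatives each, Gnaq in 10, Sgms1 in 7, Sptlc2 in 5, Gnai2 in 3 and Gna13 in 1. Leaving out a single library ended the call of Sptlc1 in 9 cases and that of Degs1 in 8, macula densa replicates 1 and 2 on control diet among them for both. The number of calls ranged from 5 to 14. Leaving out macula densa replicate 1 on control diet left 7 calls and leaving out macula densa replicate 2 on control diet left 5. Plpp1, Acer2 and Gnai2 were also lowest among control cells in replicate 4 on control diet, at 1.55, 3.51 and 18.1 CPM, the library with an endothelium sum of 59.0 CPM and a podocyte sum of 49.2 CPM.

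**Figure D5:**
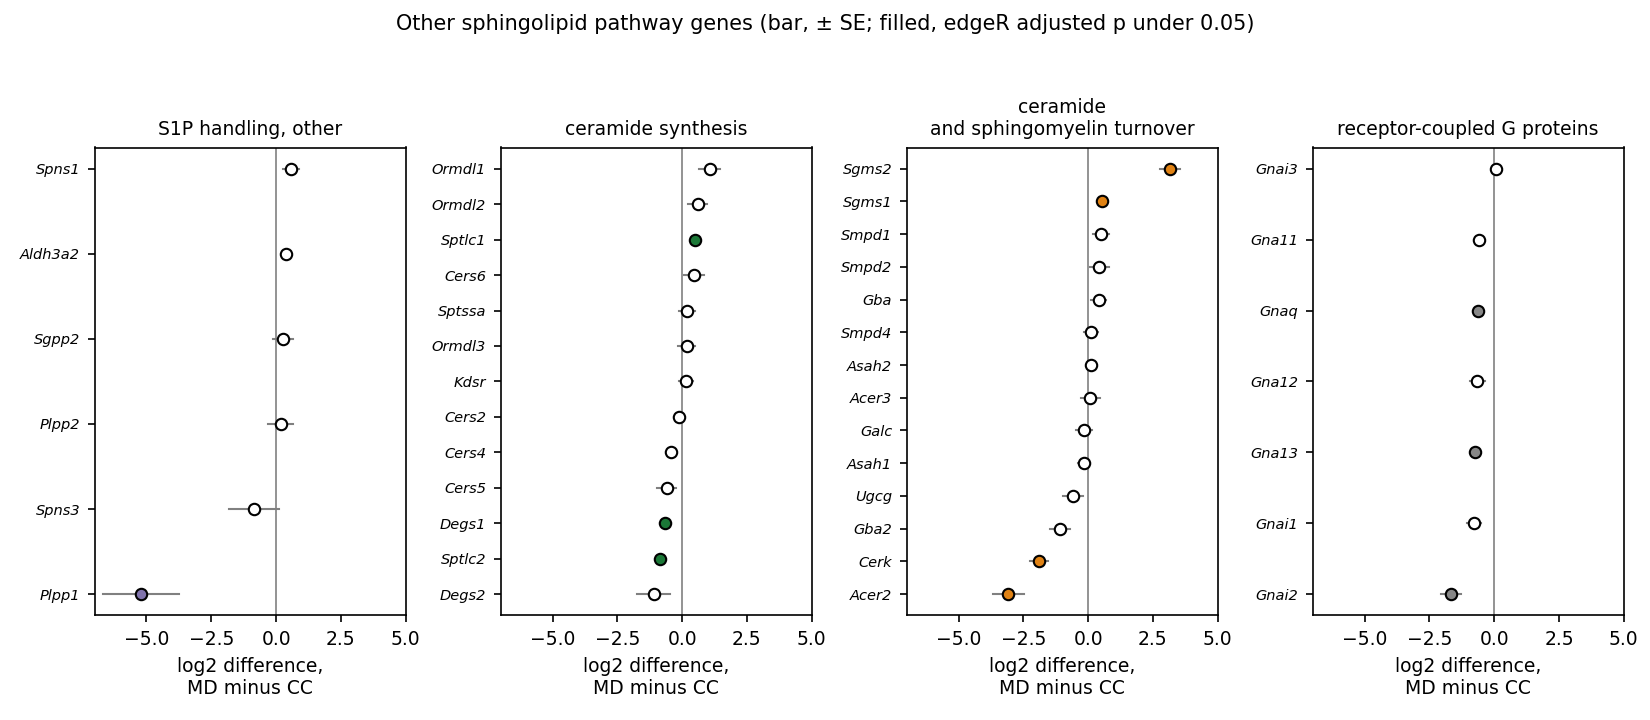
Log2 difference between macula densa and control cells, averaged over both diets (horizontal axes), for 40 other genes of the pathway in 4 lists; bars are ± SE and filled circles passed the edgeR test. Sgms2 lies at 3.15 and Acer2 at -3.09.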

How the data were processed

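Members and gene lists were chosen with earlier results of these data known. The authors deposited 1 table of estimated counts per gene for 12 libraries (expected counts: 16.1% of the values were not whole), made with STAR 2.61 and Partek on mm10, per the submitters' processing notes; libraries were stranded total RNA for small inputs, per the labels' protocols, and use of strand in counting is not given in the sources used here. Gene coordinates equal those of GENCODE M21 (GRCm38) once 1 is taken from each deposited end. No column lacked a sample (0 columns).

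Counts were rounded and tested over the whole table with edgeR 4.0.16 in R 4.3.3: filterByExpr (count minimum 10, total minimum 15; 14180 of 23378 genes kept), TMM scaling, a quasi-likelihood fit with a coefficient per group over all 12 libraries, and Benjamini-Hochberg adjustment at 0.05. Comparisons were macula densa against control cells averaged over both diets, the diets in each cell population, and the difference of the diet effects. The script was tested on simulated data. Intervals of ratios of summed counts are exact conditional binomial intervals at 95%, and these and the floor of 3 counts cover counting error only. The ratio to the endothelium sum and the promoter motifs were chosen after seeing the data.

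Named genes were the 9 members, other pathway genes past the threshold (at most 4 per list, smallest adjusted p first), the 5 genes most correlated with Spns2, and markers from 13 cell type lists. Replicate libraries differed beyond sampling noise (chi-square per degree of freedom 8.54 to 67.3). Alternatives used other scalings, filters, thresholds, limma 3.58.1 voom, DESeq2 1.42.0, replicate blocks and left-out libraries. Leaving out both libraries with endothelium sums apart was added after seeing the data.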

Additional observations from a re-analysis of the deposited data

Results flagged for a closer look

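Among 44 sets of 4 control-cell libraries (members and marker sums by diet), 4 had a library far from the other 3, where chance gives about 2.2. These sets are not independent, since S1pr1, Plpp3 and the endothelium sum were flagged in the same library and correlate with each other. The number of flagged sets therefore cannot be weighed against 2.2. S1pr1 in control-cell replicate 4 on control diet read 2.07 CPM against 19.5 to 21 CPM in the other replicates. Plpp3 in the same library read 14.8 CPM against 72.0 to 91.7 CPM. The endothelium marker sum of that library was 59.0 CPM against 1041 to 1868 CPM. The marker sum of distal convoluted and connecting tubule in control-cell replicate 3 on low salt was 69.1 CPM against 139 to 146 CPM. No other member had a control-cell library so far from the rest.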

How the results depend on the processing

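Directions and calls of the members named as passing held in all 23 alternatives, except for S1pr3 (22 alternatives, as it was not tested at a mean of at least 5 CPM) and Sgpl1, whose lost calls are given above. The count of other pathway genes past the threshold, 11, moved to 5 at a threshold of 0.01 and to 6 with the number of the titles as replicate block, and ranged from 5 to 13 when a library was left out. Pairing was checked on libraries with the same number. Those sharing a description number had correlations of deviations of -0.037 to 0.23, and 6 of 8 correlated best with their own number. Title numbers gave -0.38 to 0.28. This check cannot decide whether libraries were paired, because the deviations of the macula densa replicates on a diet mirror each other. The labels do not say whether a shared number marks a shared animal, and the main fit used no replicate block. With either replicate block, 4 members passed in the cell comparison and 0 in the others fitted, and the description block gave 13 other pathway genes. Of the log2 differences that were not called, those listed here changed sign from values between -0.93 (S1pr3 between diets in macula densa cells) and 0.84 (Sphk2 in the difference of diet effects), with Sphk1 at -0.82 between cells. With the description block, Sphk1 became 0.74 between cells and 0.98 in the difference of diet effects, and Sgpp1 -0.035 in the latter. Between diets in macula densa cells, Sgpl1 became -0.0081 without a filter, and Sgpp1 became 0.0254 with DESeq2 size factors, 0.0258 with a mean of at least 5 CPM, 0.0255 with the DESeq2 Wald test, 0.0239 with voom, 0.0174 with only the groups compared and 0.15 without both libraries with endothelium sums apart. In control cells Sphk2 became -0.022 with library totals alone, and Sgpl1 0.0212 without mitochondrial and ribosomal RNA genes, 0.0204 with only the groups compared and 0.20 without both libraries. In the difference of diet effects S1pr3 became 0.25 with voom, and without both libraries S1pr3 became 0.11, Sgpl1 -0.18 and Plpp3 0.15. When a library was left out, values ranged between cells from -0.082 to 0.60 for Sphk2. In macula densa cells between diets they ranged from -0.95 to 1.11 for Sphk1, -3.85 to 0.015 for S1pr3, -0.14 to 0.23 for Sgpl1 and -0.26 to 0.15 for Sgpp1. In control cells they ranged from -0.033 to 0.24 for Sphk2, -0.18 to 0.17 for Sgpl1, -0.33 to 0.088 for Sgpp1 and -0.46 to 0.22 for Plpp3. For the difference of diet effects they ranged from -0.095 to 1.28 for Sphk2, -3.09 to 0.78 for S1pr3, -0.14 to 0.30 for Sgpl1, -0.11 to 0.33 for Sgpp1 and -0.81 to 0.11 for Plpp3. The cause was not tested. A left-out macula densa library leaves 1 in its group, which is then assumed to vary like the other groups. Depth limits S1pr2 and, in macula densa cells, S1pr1 and S1pr3.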

Other observations

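Between diets in macula densa cells, 5 of the 40 other pathway genes had an unadjusted p under 0.05, beside 11.2% of all genes, and none passed after adjustment. They were named after their values were seen. Spns3, a relative of Spns2 whose substrate is less well known, had 0 and 1 counts in macula densa libraries on control diet and 7 and 9 on low salt, beside 0 to 7 and 2 to 9 counts in control cells. Asah2, the neutral ceramidase that yields sphingosine, read 7.49 and 7.58 CPM on control diet and 14.2 and 10.5 CPM on low salt, beside 7.22 to 10.4 CPM in control cells. Degs2, a dihydroceramide hydroxylase, read 0.308 and 0.244 CPM on control diet and 0.958 and 3.77 CPM on low salt. Sptlc2 read 15.9 and 13.4 CPM on control diet and 8.24 and 8.69 CPM on low salt. Plpp1 read 13.4 and 2.28 CPM on control diet and 0.383 and 0 CPM on low salt.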
